A study of Mus musculus with 11 samples.

Results

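The skeletal muscle contractile genes described here are 10 genes of the skeletal muscle fiber, out of 18193 genes that the arrays could name. The genes are Myh1, Myh2, Myh4, Acta1, Actn3, Tnnt3, Tnni2, Tnnc2, Ckm and Mylpf. They were selected on their signal, which had been seen to be high on the arrays of CD51+ BMSCs, so every contrast with those arrays is given below as a description without a test. Each gene is represented by the probe set that carries its symbol alone and has the highest mean over all 11 arrays, and all 10 genes had one. Values are log2 signals, on which 1 unit is a 2-fold change.

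The study hybridised RNA of 6 sorted mouse cell populations to 11 Affymetrix arrays, 2 each for CD51+ BMSCs, Mx1+Ocn- P-SSCs, Mx1+Nes+ BM-SSCs, Osx+ osteoprogenitors and CD45+ hematopoietic cells, and 1 for Nes+ BMSCs. All populations but the CD45+ cells were depleted of CD45, CD31 and Ter119 positive cells, that is of leukocytes, endothelium and erythroid cells. The CD51+ BMSCs were then sorted from marrow on CD51, the integrin alpha V chain (Itgav), and the study's methods add CD105 and CD140a, which the labels of these arrays do not give. The P-SSCs were CD105+CD140a+Mx1+ and osteocalcin-negative cells of periosteal tissue, and the BM-SSCs were CD105+CD140a+Mx1+Nes+ cells of marrow. Both came from mice with Mx1-Cre and a Rosa-Tomato reporter, together with osteocalcin-GFP for the P-SSCs and nestin-GFP for the BM-SSCs. These mice were irradiated when young and received wild-type marrow, and later pIpC, an interferon inducer that switches on Mx1-Cre, and Mx1-Cre is also active in blood cells. The Nes+ BMSCs were CD105+CD140a+ and took in Mx1-positive and Mx1-negative cells. The Osx+ cells carried a reporter of osterix (Sp7), the osteoblast transcription factor. GEO's source entry is periosteal tissue for the Osx+ arrays, and also for the Nes+ array, whose title says marrow. Cells were pooled from male and female mice, and the methods call the 2 arrays of a population biological repeats, without saying how the mice were divided between them. The methods state that muscle, tendon and fascia were removed from the bones before digestion.

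The labels were checked on the sorting genes. Itgav read 10.10 and 10.27 in CD51+ BMSCs, against 10.31 and 4.23 in P-SSCs, 10.50 and 7.39 in the BM-SSCs, 9.94 in Nes+ BMSCs, 10.73 and 10.79 in Osx+ cells and 8.75 and 8.79 in CD45+ cells, so that it did not set the CD51+ arrays apart. Nes, the nestin gene, read 6.17 and 7.08 in BM-SSCs and 7.41 in Nes+ BMSCs, within the 5.26 to 7.42 of the other arrays. Sp7 read 8.93 and 8.58 on the Osx+ arrays, the highest of all arrays. Ptprc, the gene of CD45, read 10.23 and 10.17 on the CD51+ arrays although these cells had been depleted of CD45, against 2.42 and 5.07 in Osx+ cells and 12.06 and 12.05 in CD45+ cells. In both SSC populations array 2 departed from all other arrays: the 3 prime control probe set of beta-actin read 7.81 on that of the P-SSCs and 12.78 on that of the BM-SSCs, against 13.23 to 14.25 on the other 9 arrays, and the 2 arrays of a population correlated at 0.456 for P-SSCs and 0.771 for BM-SSCs, against 0.985 to 0.995 in the other 3 pairs (Pearson, across probe sets).

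A muscle fiber shortens when myosin heavy chains of the thick filament pull on the actin of the thin filament. Calcium permits this through the troponin complex, in which troponin C binds calcium, troponin I holds the filament off and troponin T ties both to tropomyosin. Fast fibers and slow fibers use different genes for most of these parts. The set listed here is made by mature fibers, which are multinucleate. It is switched on late, after the myogenic factors of satellite cells and myoblasts.

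In the set 8 of 10 genes lay higher on both CD51+ arrays than on each of the other 9 arrays, and the 2 exceptions were Myh4 and Tnni2. Over all 18193 genes 7.05% had both CD51+ arrays on top, a share that is given for scale only since the set was chosen for this pattern. The median difference of the 10 genes was 2.89 log2 units for CD51+ BMSCs minus Osx+ cells, 3.59 minus CD45+ cells, 3.62 minus BM-SSCs and 3.54 minus P-SSCs, where the medians of all genes were -0.04, -0.07, 0.09 and 0.03. Both CD51+ arrays lay above both arrays of the other population for 9 of 10 genes against P-SSCs, 9 against BM-SSCs, 8 against Osx+ cells and 9 against CD45+ cells, beside 35.9%, 32.7%, 30.7% and 31.5% of all genes. On bulk arrays, more cells of a kind and more RNA per cell cannot be told apart.

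**Figure D1:**
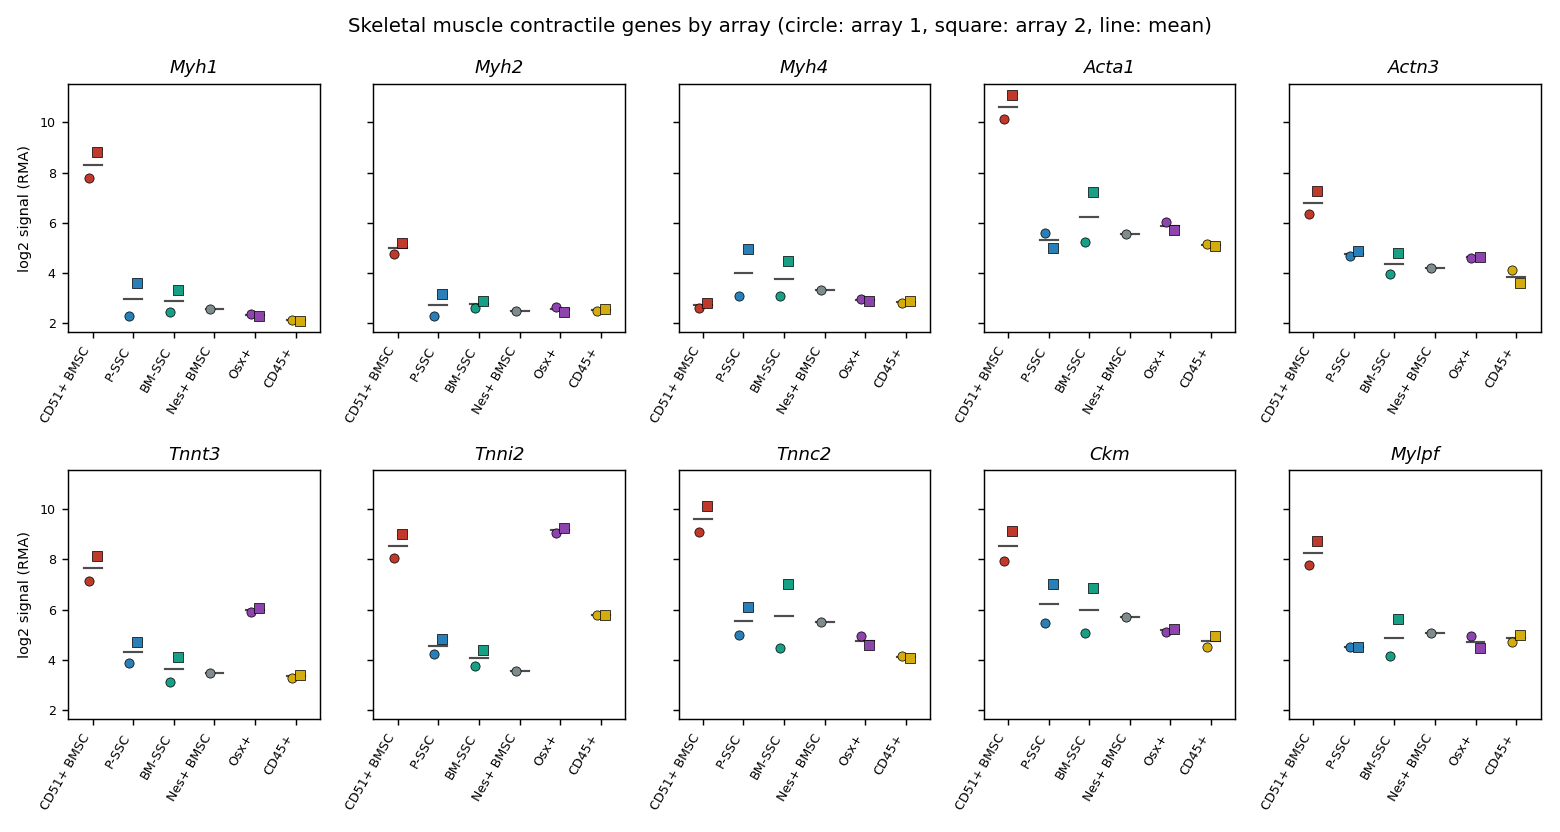
Log2 signal (y axis) of the 10 genes in the 6 populations (x axis); circles are array 1, squares array 2, and the line is the mean (1 array for Nes+ BMSCs). The CD51+ arrays are on top for 8 genes; Tnni2 is as high in Osx+ cells, at 9.04 and 9.27, and Myh4 is at 2.63 and 2.83 in CD51+ BMSCs.

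Of the thick filament, Myh1, the fast IIx myosin heavy chain, differed most. It read 7.79 and 8.83 in CD51+ BMSCs, against 2.30 and 3.6 in P-SSCs, 2.45 and 3.33 in the BM-SSCs, 2.57 in Nes+ BMSCs, 2.38 and 2.31 in Osx+ cells and 2.15 and 2.09 in CD45+ cells. No other array came within 4 units of the lower CD51+ array, and the mean difference was 5.97 from Osx+ cells and 6.19 from CD45+ cells. Myh2, the IIa heavy chain, read 4.77 and 5.20 in CD51+ BMSCs and 2.30 to 3.17 on the other arrays. Its CD51+ values were above all others, at a smaller distance of 2.43 units from Osx+ cells. Myh4, the IIb heavy chain, read 2.63 and 2.83 in CD51+ BMSCs, against 3.08 and 4.94 in P-SSCs, 3.07 and 4.47 in the BM-SSCs, 3.33 in Nes+ BMSCs, 2.97 and 2.90 in Osx+ cells and 2.82 and 2.90 in CD45+ cells. Its CD51+ arrays were thus at the low end, and its highest values were on the 2 SSC arrays that stood apart. Mylpf, the regulatory light chain of fast myosin, read 7.78 and 8.72 in CD51+ BMSCs and 4.16 to 5.61 elsewhere, with a mean difference of 3.53 from Osx+ cells.

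These readings depended on the probe set for the heavy chains, whose coding sequences are near copies of each other, so that probe sets may cross-read and the paralogs are uncertain. Myh1 has 3 probe sets. The one used here and the third by mean ran alike, the third with 7.58 and 8.53 in CD51+ BMSCs and 1.95 to 2.78 elsewhere. The second by mean read 2.79 and 2.92 in CD51+ BMSCs and 2.81 to 4.94 elsewhere. For Myh4 the order was turned round: its other probe set read 3.62 and 4.62 in CD51+ BMSCs, against 2.57 and 2.97 in P-SSCs, 2.74 and 4.05 in the BM-SSCs, 2.90 in Nes+ BMSCs, 2.51 and 2.69 in Osx+ cells and 2.58 and 2.53 in CD45+ cells. On it the difference from Osx+ cells was 1.52 and not -0.21. The chosen probe set of a gene with several is the one with the highest mean, and for Myh4 that mean was carried by the SSC arrays.

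Of the thin filament, Acta1, the skeletal alpha-actin, read 10.12 and 11.09 in CD51+ BMSCs, against 5.59 and 5.0 in P-SSCs, 5.24 and 7.24 in the BM-SSCs, 5.57 in Nes+ BMSCs, 6.02 and 5.73 in Osx+ cells and 5.15 and 5.07 in CD45+ cells. The CD51+ mean lay 4.73 units above the Osx+ mean and 5.50 above the CD45+ mean. Tnnc2, the fast troponin C, read 9.10 and 10.14 in CD51+ BMSCs, against 4.97 and 6.11 in P-SSCs, 4.47 and 7.01 in the BM-SSCs, 5.49 in Nes+ BMSCs, 4.96 and 4.57 in Osx+ cells and 4.15 and 4.09 in CD45+ cells. For both genes the next highest array was array 2 of the BM-SSCs. Tnnt3, the fast troponin T, read 7.16 and 8.13 in CD51+ BMSCs, against 3.89 and 4.73 in P-SSCs, 3.12 and 4.13 in the BM-SSCs, 3.47 in Nes+ BMSCs, 5.90 and 6.06 in Osx+ cells and 3.29 and 3.41 in CD45+ cells. Here the Osx+ cells came second, without overlap with any other population. Tnni2, the fast troponin I, read 8.07 and 9.02 in CD51+ BMSCs, against 4.23 and 4.83 in P-SSCs, 3.73 and 4.38 in the BM-SSCs, 3.55 in Nes+ BMSCs, 9.04 and 9.27 in Osx+ cells and 5.78 and 5.78 in CD45+ cells. It was the only gene of the 10 with its highest values in Osx+ cells, by 0.61 units over the CD51+ mean, a distance smaller than that between the CD51+ arrays.

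Of the other parts of the fiber, Actn3, the fast-fiber alpha-actinin of the Z-disc, read 6.35 and 7.26 in CD51+ BMSCs and 3.59 to 4.87 elsewhere. Ckm, the muscle creatine kinase that regenerates ATP next to the filaments, read 7.94 and 9.12 in CD51+ BMSCs, against 5.48 and 7.0 in P-SSCs, 5.08 and 6.85 in the BM-SSCs, 5.70 in Nes+ BMSCs, 5.12 and 5.24 in Osx+ cells and 4.51 and 4.96 in CD45+ cells. The CD51+ arrays were the highest for both genes, with mean differences from Osx+ cells of 2.19 for Actn3 and 3.35 for Ckm. On the second probe set of Ckm the CD51+ arrays read 5.12 and 5.02 and did not stand out from the others, at 4.85 to 7.48.

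Outside the CD51+ arrays the range differed from gene to gene, with 2.30 to 3.17 for Myh2 and 3.55 to 9.27 for Tnni2 as the narrowest and the widest. The mean level over the set was 7.17 and 8.03 on the CD51+ arrays, against 4.10 to 4.88 in P-SSCs, 3.79 to 5.07 in the BM-SSCs, 4.14 in Nes+ BMSCs, 4.77 to 4.86 in Osx+ cells and 3.92 to 3.95 in CD45+ cells. Within the SSC populations array 2 read higher than array 1 for 9 of 10 genes in P-SSCs and 10 of 10 in BM-SSCs. Among all genes that read under 6 on array 1, as these 10 did, 80.3% and 79.3% also read higher on array 2. The median difference, array 2 minus array 1, was 0.85 for the set and 0.86 for all such genes in P-SSCs; in BM-SSCs it was 1.21 for the set and 0.68 for all such genes.

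Promoter sequences are shown for the 3 fast myosin heavy chains, which neighbour each other on chromosome 11 yet read apart, and for Acta1 and Ckm, which lay high with Myh1. RefSeq promoter sequences matched 7 of the 10 genes on the mouse assembly GRCm38.p6; Actn3, Tnnt3 and Tnni2 had no entry. Each run is the 250 bases before the annotated gene start, 5′ to 3′ on the gene's strand, and capitals mark the motifs searched on both strands: the E-box CANNTG of the MyoD family, the MCAT element CATTCC, the TATA box TATAAA, the CArG box of serum response factor and the MEF2 site. The windows are chr11:67199852-67200101 (+) for Myh1, chr11:67170777-67171026 (+) for Myh2, chr11:67237562-67237811 (+) for Myh4, chr8:123894776-123895025 (-) for Acta1 and chr7:19410844-19411093 (+) for Ckm.
Myh1: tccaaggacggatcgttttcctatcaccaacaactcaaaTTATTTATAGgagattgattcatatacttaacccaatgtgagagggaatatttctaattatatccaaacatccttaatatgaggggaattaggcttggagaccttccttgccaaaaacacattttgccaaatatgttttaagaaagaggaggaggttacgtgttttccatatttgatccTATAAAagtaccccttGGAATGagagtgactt
Myh2: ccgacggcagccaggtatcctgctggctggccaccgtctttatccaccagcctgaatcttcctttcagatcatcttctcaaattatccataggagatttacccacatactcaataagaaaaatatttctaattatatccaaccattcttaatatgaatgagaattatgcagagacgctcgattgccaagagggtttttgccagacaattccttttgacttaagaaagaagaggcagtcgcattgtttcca
Myh4: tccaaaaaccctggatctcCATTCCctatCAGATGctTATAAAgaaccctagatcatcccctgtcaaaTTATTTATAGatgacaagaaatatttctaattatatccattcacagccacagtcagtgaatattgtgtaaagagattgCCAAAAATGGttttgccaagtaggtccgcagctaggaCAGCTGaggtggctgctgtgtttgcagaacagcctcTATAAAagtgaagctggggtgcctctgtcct
Acta1: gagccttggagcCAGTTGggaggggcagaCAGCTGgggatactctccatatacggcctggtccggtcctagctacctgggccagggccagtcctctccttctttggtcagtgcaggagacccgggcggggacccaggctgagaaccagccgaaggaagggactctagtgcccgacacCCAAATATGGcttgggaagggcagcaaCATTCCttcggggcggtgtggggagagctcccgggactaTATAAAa
Ckm: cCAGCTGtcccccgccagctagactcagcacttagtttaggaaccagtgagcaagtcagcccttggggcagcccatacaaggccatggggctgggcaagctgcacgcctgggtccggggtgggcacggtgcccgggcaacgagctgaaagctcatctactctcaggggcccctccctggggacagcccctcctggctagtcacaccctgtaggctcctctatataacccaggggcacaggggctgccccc

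The CArG box was found in 2 of the 7 windows, Acta1 and Myh4, and in 1.47% of the 32851 promoters of the table. The MEF2 site was found in Myh1 and Myh4, and in 1.69% of all promoters. In both genes it is the same run of letters, and it contains a TATAAA match on the opposite strand. The form CAGCTG of the E-box was found in Acta1, Myh4, Ckm and Mylpf, against 13.0% of all promoters, and any E-box CANNTG in 5 of 7 against 66.2%. CATTCC and TATAAA were each found in Acta1, Myh1 and Myh4, against 12.6% and 12.4% of all promoters. The window of Myh4, whose signal in CD51+ BMSCs depended on the probe set, held all 6 motifs, with CAGCTG counted apart from CANNTG. That of Myh2 held none. The windows end at annotated starts, and whether these correspond between genes was not tested. A match is a run of letters and not a measured binding site.

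The 2 CD51+ arrays did not hold the set at the same level. Array 2 lay above array 1 for 10 of 10 genes and by more than 0.9 units for 8 of them, whereas 0.192% of all genes, 35 of 18193, lay that far above. The difference was 1.18 for Ckm, 1.04 for Myh1 and for Tnnc2, 0.98 for Acta1, 0.97 for Tnnt3, 0.96 for Tnni2, 0.94 for Mylpf and 0.91 for Actn3, with 0.43 for Myh2 and 0.20 for Myh4. The median of the set was 0.96, and that of all genes 0.00 with an SD over genes of 0.26. These 8 differences, picked by the cut of 0.9 units, ran from 1.88-fold for Actn3 to 2.27-fold for Ckm. Myh2 and Myh4, which had the lowest CD51+ signals of the set, differed less on the probe sets used. For genes with several probe sets the difference depended on the one taken. On its other probe set Myh4 differed by 1.00, and Ckm on its other one by -0.10. The other probe sets of Myh1 gave 0.12 and 0.95, and those of Tnni2 gave 0.85 and 0.20. With 1 array on each side there is no test of the difference between the CD51+ arrays.

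Among the 5948 genes with a CD51+ mean over 7, the 7 members with such a mean were all within the 12 genes that differed most in this direction. The members were chosen for a high CD51+ signal, by which they also pass this bound, so the ranking is a description. The other 5 of those 12 were Daglb, Myl1, Atp2a1, Eln and Mb, of which Myl1, the fast essential myosin light chain (0.96), Atp2a1, the fast sarcoplasmic calcium pump (0.93), and Mb, the oxygen store myoglobin (0.78), are muscle fiber genes. Of the 25 other sarcomere genes 23 were higher on array 2, with a median of 0.46 and 6 over 0.9. Of the 19 genes of calcium handling and excitation 16 were higher (median 0.28), of the 15 of muscle energy metabolism 11 (median 0.29) and of the 9 slow fiber isoforms 9 (median 0.10). The genes of satellite cells, the stem cells of muscle, and of myogenic factors lay the other way, with 10 of 12 lower on array 2 and a median of -0.23. Pax7, the satellite cell factor, read 4.81 on array 1 and 4.27 on array 2, and Myod1, the myoblast factor, 6.09 and 5.45. Erythroid genes were also lower on array 2 (4 of 5, median -0.59), whereas the medians of pan-leukocyte and ribosomal genes were 0.01 and -0.10. Some other lists were higher on array 2: 8 of 9 endothelial genes (median 0.23), 5 of 6 chondrocyte genes (0.21), 5 of 5 osteoblast genes (0.17) and 6 of 7 heart muscle genes (0.19). Their medians lay between those of the slow fiber isoforms and of the calcium handling genes. For smooth muscle genes the median was -0.08.

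**Figure D2:**
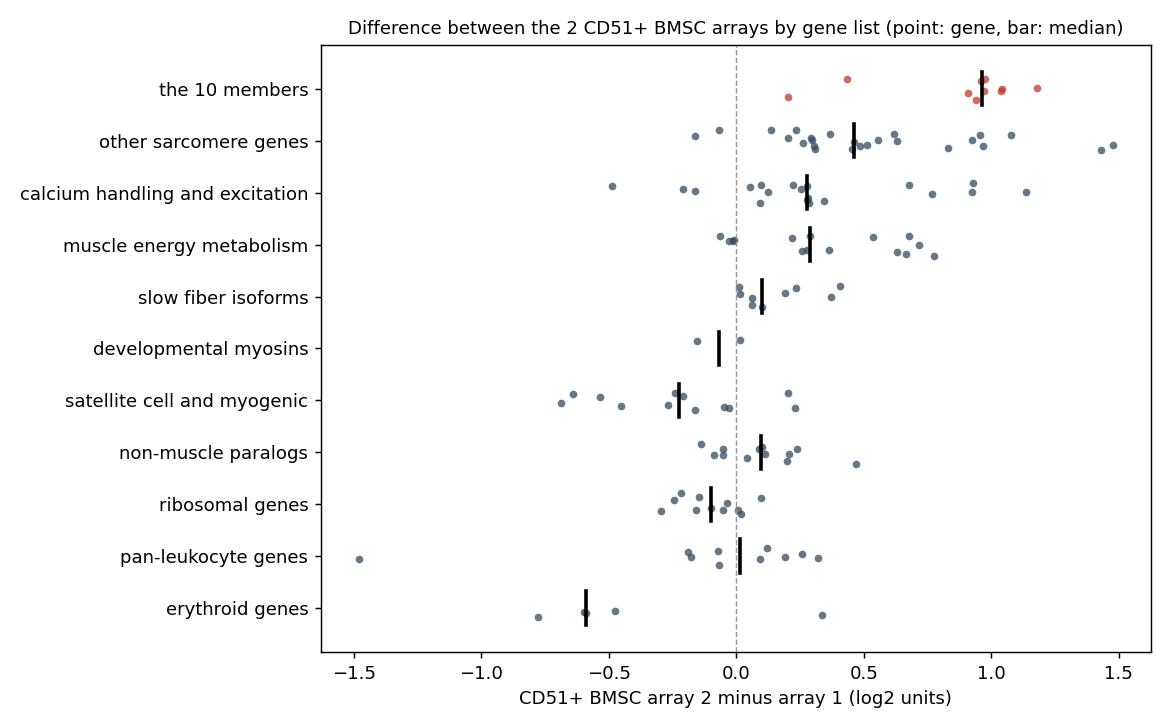
Difference in log2 signal between array 2 and array 1 of the CD51+ BMSCs (x axis) for each gene of 11 lists (y axis); points are genes and bars are medians. The 10 members have a median of 0.96, the satellite cell and myogenic genes one of -0.23.

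Other genes of skeletal muscle were higher in CD51+ BMSCs than in Osx+ cells for 8 of 82 measured genes and lower for 0 (limma, adjusted p under 0.05 over 45037 probe sets, of which 1.51% were called higher, 0.711% lower and 2.22% in either direction). Against CD45+ cells 14 of 82 were higher and 1 was lower, where 2.95% of probe sets were called higher, 2.9% lower and 5.85% in either direction. These counts fell or were lost in fits that left 1 array in CD51+ BMSCs, Osx+ or CD45+ cells, and the calls over all probe sets fell as well. The 82 genes are on 1 probe set each, whereas the shares are over all probe sets. In a fit with 1 probe set per gene, 617 of 18193 genes were called against Osx+ cells and 1570 against CD45+ cells, in either direction. Both comparisons share the CD51+ arrays. The median difference of the 82 genes was 0.54 from Osx+ cells and 0.71 from CD45+ cells, against -0.04 and -0.07 for all genes, and smaller than the 2.89 and 3.59 of the 10 contractile genes.

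By role, 3 of 25 other sarcomere genes rose in CD51+ BMSCs against Osx+ cells: Myl1, Mybpc1, a myosin-binding protein C, and Smpx, a small muscle protein. Myl1 read 7.50 and 8.46 in CD51+ BMSCs, against 3.10 and 4.54 in P-SSCs, 3.71 and 4.37 in the BM-SSCs, 3.71 in Nes+ BMSCs, 3.87 and 3.37 in Osx+ cells and 3.51 and 3.50 in CD45+ cells. It was higher by 4.36 than in Osx+ cells (SE 0.565, adjusted p = 0.00909, limma) and by 4.47 than in CD45+ cells (adjusted p = 0.00673, limma). Its call against Osx+ cells ended without any one of the 4 arrays compared (adjusted p 0.0700 to 0.116, limma), and that against CD45+ cells without either CD45+ array or array 2 of the CD51+ BMSCs (0.0852 to 0.0920). Myot, the Z-disc protein myotilin, differed by 3.81 from Osx+ cells, with an adjusted p of 0.129 (limma). The giant proteins titin and nebulin had low signals, with 4.10 and 4.46 for Ttn and 2.69 and 4.17 for Neb in CD51+ BMSCs. The rise of Neb from array 1 to array 2 (1.48) was the largest of the 25 other sarcomere genes.

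Of the 9 slow fiber isoforms Tnnt1 (2.04) and Myl2 (2.94) passed against Osx+ cells, and Tnnc1 (1.61) and Myl2 (1.85) against CD45+ cells. Tnnt1, the slow troponin T, read 6.10 and 6.17 in CD51+ BMSCs, against 4.03 and 4.15 in Osx+ cells and 6.08 and 5.70 in CD45+ cells, so that it was not set apart from blood cells. The slow heavy chain Myh7 read 4.03 and 4.44 in CD51+ BMSCs and 3.92 to 4.32 elsewhere. The developmental heavy chains Myh3 and Myh8, which flank the fast cluster, read 3.23 and 3.08 for Myh3 and 2.23 and 2.25 for Myh8 in CD51+ BMSCs, and neither passed. The myosin cluster of chromosome 11 has the gene order Myh3, Myh2, Myh1, Myh4, Myh8 and Myh13, the last without a probe set. By means, CD51+ BMSCs were highest for Myh2, for Myh1 on all but 1 probe set, and for Myh4 on 1 of its probe sets.

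None of the 19 genes of calcium handling and excitation passed against Osx+ cells by limma, Atp2a1 differing most with 1.95 (adjusted p = 0.229), and against CD45+ cells Ryr1, the calcium release channel, was lower by 1.92 (adjusted p = 0.028), a call that ended without any one CD51+, Osx+ or CD45+ array (adjusted p 0.0605 to 0.247). Of 15 energy genes, Pgam2 (2.32), a muscle phosphoglycerate mutase, and Cox7a1 (1.82), a muscle cytochrome oxidase subunit, passed against Osx+ cells. Mb read 7.73 and 8.51 in CD51+ BMSCs, against 4.18 and 4.22 in Osx+ cells and 3.79 and 3.95 in CD45+ cells. It passed against CD45+ cells (4.25, adjusted p = 0.0228, limma) and missed the threshold against Osx+ cells (3.92, adjusted p = 0.0542, limma). The call for Mb against CD45+ cells ended without any one CD51+, Osx+ or CD45+ array (adjusted p 0.0598 to 0.207, limma) and with quantile normalization (0.164), and Mb passed against Osx+ cells without any one SSC array (0.0226 to 0.0259). Car3, carbonic anhydrase of slow muscle and fat, was higher by 5.35 than in CD45+ cells but read 10.10 and 10.32 in CD51+ BMSCs against 11.07 and 11.91 in Osx+ cells, and up to 12.38 in BM-SSCs.

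Of 12 satellite cell and myogenic genes, Myf5, a myogenic factor, passed against Osx+ cells (2.67, adjusted p = 0.0094, limma). It read 4.94 and 4.49 in CD51+ BMSCs, against 2.35 and 3.03 in P-SSCs, 2.22 and 2.20 in the BM-SSCs, 2.46 in Nes+ BMSCs, 2.08 and 2.02 in Osx+ cells and 1.93 and 1.97 in CD45+ cells. That call ended without any one of the 4 arrays compared (adjusted p 0.0945 to 0.136, limma). Against CD45+ cells Myf5, Myod1 (2.43), Calcr (2.16), the calcitonin receptor of quiescent satellite cells, and Chodl (4.65) passed. Pax7 had 4.81 and 4.27 in CD51+ BMSCs, above 3.34 and 3.31 in Osx+ cells, and Myog, the factor of differentiating myoblasts, had 3.65 and 3.6 in CD51+ BMSCs against 3.53 and 3.53 in Osx+ cells. Neither of them passed.

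**Figure D3:**
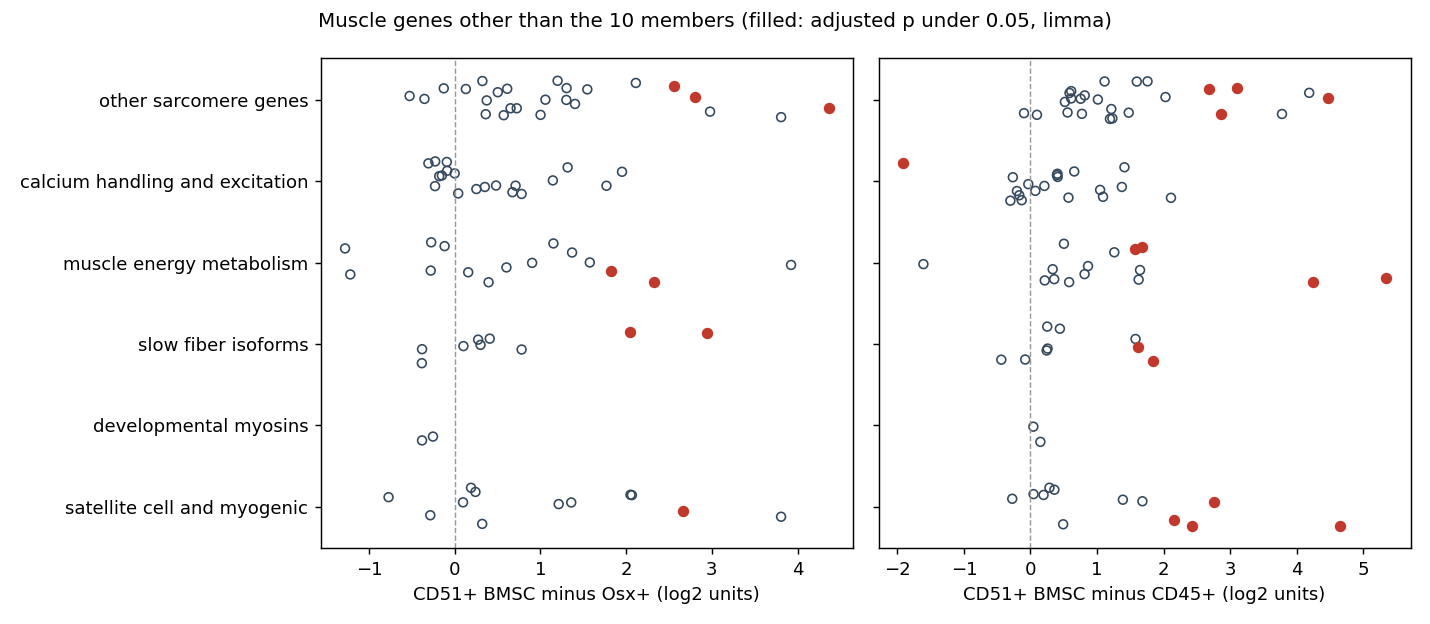
Difference of means in log2 signal (x axis) for CD51+ BMSCs minus Osx+ cells (left) and minus CD45+ cells (right), for the 82 other muscle genes in 6 lists (y axis); each point is a gene and filled points passed limma. There are 8 filled points on the left and 15 on the right, of which Ryr1 alone is lower.

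Relatives of the contractile genes that most cells use were looked at next. Of 12 non-muscle paralogs (Myh9, Myh10, Actb, Actg1, Actn1, Actn4, Ckb, Myl9, Myl6, Myl12a, Myl12b and Tpm4) 0 passed against Osx+ cells by limma, with differences of 0.01 to 1.73 and a median of 0.46. Against CD45+ cells 1 passed, Myh10, a non-muscle heavy chain, at 8.60 and 9.06 in CD51+ BMSCs against 3.99 and 4.54 in CD45+ cells. Genes of heart muscle passed in neither comparison (0 of 7): Myh6 read 2.56 and 2.77 and Tnni3 4.07 and 3.73 in CD51+ BMSCs, each within the range of the other arrays. Of 6 smooth muscle genes 0 passed against Osx+ cells and 1 against CD45+ cells, and Myh11 read 4.70 and 4.54 in CD51+ BMSCs against 4.94 and 4.63 in Osx+ cells. Tnmd, a tendon gene, read 8.50 and 8.44 in CD51+ BMSCs, against 7.30 and 7.28 in Osx+ cells and 4.15 and 4.43 in CD45+ cells. Of 8 tendon and fibroblast genes 1 passed against Osx+ cells by limma, Pi16 (7.18). Among the rest, Scx (-0.84), Mkx (-1.03) and Fmod (-1.68) were lower in CD51+ BMSCs by means. Tnmd (1.18), Thbs4 (4.69), Dcn (2.16) and Dpt (3.12) were higher, and none of these passed.

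Blood cell genes also differed between these populations. Of 10 pan-leukocyte genes 8 were higher in CD51+ BMSCs than in Osx+ cells by limma, where 1.51% of probe sets were called higher. The count fell or was lost in fits that left 1 array in CD51+ BMSCs, Osx+ or CD45+ cells. The calls over all probe sets fell in those fits as well. Their mean level was 10.1 to 10.2 in CD51+ BMSCs, against 5.27 to 6.46 in P-SSCs, 6.19 to 7.48 in the BM-SSCs, 5.66 in Nes+ BMSCs, 3.86 to 5.43 in Osx+ cells and 11.86 to 11.96 in CD45+ cells. The CD45+ cells, with more leukocyte signal, had the mean level of 3.92 to 3.95 for the muscle set that is given above. The part of any of these cell types in the muscle signal was not tested.

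The 10 genes whose pattern over the 11 arrays was most like the mean of the set were Myl1 (Pearson r 0.968), Wnt2 (0.968), Smpx (0.961), Dmrt2 (0.959), Stmn4 (0.958), Krtdap (0.957), Hoxc13 (0.948), Art3 (0.945), Duox1 (0.942) and Crem (0.942). These correlations rest on the distance of the 2 CD51+ arrays from the rest and are given as a description. Within the CD51+ pair the genes differed: Myl1, Smpx and Wnt2 were 0.96, 0.62 and 0.55 units higher on array 2, whereas the other 7 lay between -0.24 and 0.20. Krtdap, a keratinocyte gene, read 7.81 and 7.59 in CD51+ BMSCs and at most 3.67 elsewhere.

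Among the comparisons of P-SSCs, BM-SSCs, Osx+ and CD45+ cells, the troponins Tnni2 and Tnnt3 were the members that passed in any. Tnni2 fell in P-SSCs against Osx+ cells by 4.62 (SE 0.438, 95% interval -5.64 to -3.6, adjusted p = 0.00594, limma) and in BM-SSCs against Osx+ cells by 5.10 (SE 0.438, 95% interval -6.11 to -4.08, adjusted p = 0.00399, limma). The groups did not overlap in either comparison. It was 1 of 10 genes called in each, where 0.808% of probe sets were called for P-SSCs and 0.615% for BM-SSCs, most of them lower (0.762% and 0.584%). Tnnt3 differed in the same direction, by -1.67 in P-SSCs and -2.35 in BM-SSCs, with adjusted p of 0.217 and 0.135 (limma). Both comparisons share the Osx+ arrays. The call of Tnni2 ended when either Osx+ array was left out (adjusted p 0.0888 and 0.107 for P-SSCs, 0.0722 and 0.0858 for BM-SSCs, limma) and when only the groups compared were fitted (0.367 and 0.185).

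Against CD45+ cells 0 of 10 genes passed in P-SSCs, where 9.77% of probe sets did, and 0 of 10 in BM-SSCs, where 8.44% did (limma; 1 gene in each at an unadjusted p under 0.05). That gene was Tnni2, at -1.25 in P-SSCs (adjusted p = 0.106, limma) and -1.73 in BM-SSCs (adjusted p = 0.0532, limma). With 1 array left out the difference of Tnni2 lay between -1.55 and -0.95 in P-SSCs and between -2.05 and -1.40 in BM-SSCs.

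In Osx+ cells against CD45+ cells, a comparison chosen after the values were seen, Tnni2 was higher by 3.37 (SE 0.438, 95% interval 2.35 to 4.39, adjusted p = 0.00318, limma) and Tnnt3 by 2.62 (SE 0.505, 95% interval 1.45 to 3.80, adjusted p = 0.0171, limma). They were 2 of 10 genes called, where 9.27% of probe sets were called and 3.65% were called higher. The other 8 genes did not pass. The call of Tnnt3 ended when any one of the 4 arrays compared was left out (adjusted p 0.113 to 0.134, limma), and that of Tnni2 did not. The second probe set of Tnni2 read 6.64 and 6.78 in Osx+ cells against 3.99 and 4.17 in CD45+ cells.

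Tnni2 and Tnnt3 neighbour each other on chromosome 7, in the order Syt8, Tnni2, Lsp1, Tnnt3 and Mrpl23 (RefSeq, protein-coding genes). Syt8, a synaptotagmin, read 8.53 and 8.91 in Osx+ cells and 4.89 to 6.53 on all other arrays. It was lower by 3.62 in P-SSCs (adjusted p = 0.0158), by 2.79 in BM-SSCs (adjusted p = 0.0462) and by 2.85 in CD51+ BMSCs (adjusted p = 0.0184) than in Osx+ cells, and higher by 3.79 in Osx+ cells than in CD45+ cells (adjusted p = 0.00194, limma). Lsp1, a leukocyte protein that lies between the troponins, read 8.39 and 8.54 in Osx+ cells against 10.72 and 10.41 in CD45+ cells and passed in none of these comparisons, nor did Mrpl23, a mitochondrial ribosomal protein gene. Syt8 was thus called higher in Osx+ cells in all 4 comparisons, Tnni2 in its 3 without the CD51+ arrays, and Tnnt3 against CD45+ cells alone. Tnnt3 also read higher in Osx+ cells than in both SSC populations, without overlap, but missed the threshold there. The 3 calls of Syt8 for P-SSCs, BM-SSCs and CD51+ BMSCs ended when either Osx+ array was left out (adjusted p 0.141 to 0.460, limma), when any one CD51+ or CD45+ array was (0.0653 to 0.188) and with quantile normalization (0.113 to 0.507), whereas the call against CD45+ cells held under all alternatives run. In CD51+ BMSCs, where both troponins were high, Syt8 read 5.83 and 5.91.

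**Figure D4:**
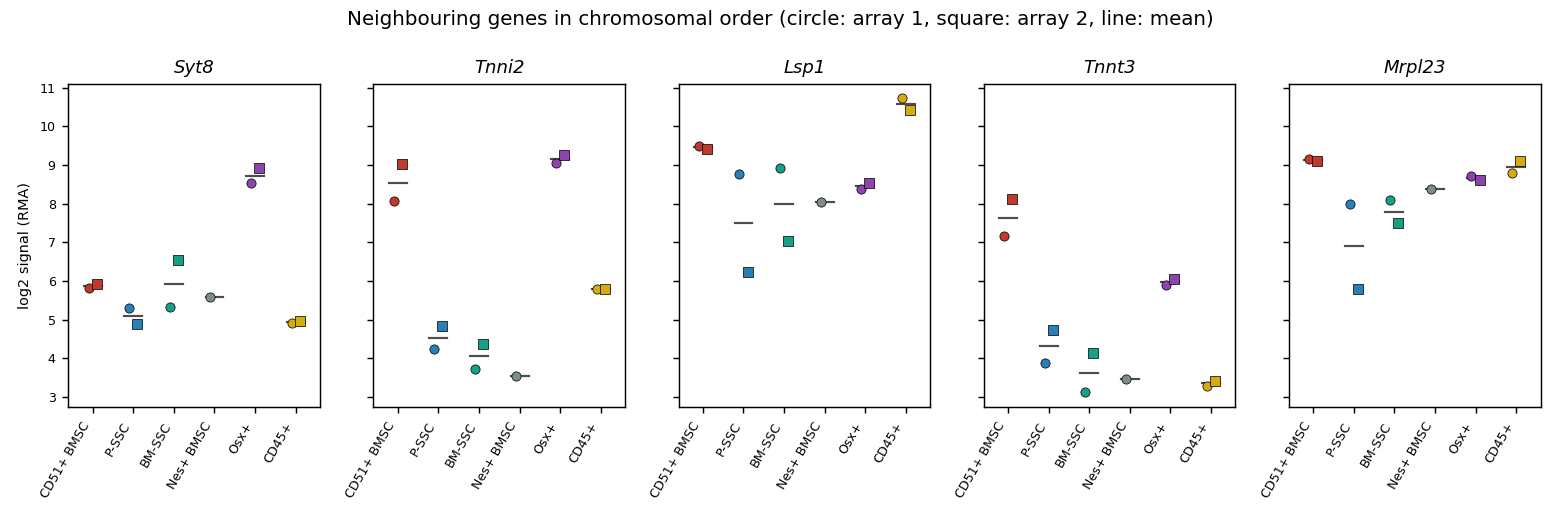
Log2 signal (y axis) of 5 neighbouring genes of chromosome 7, in their order, in the 6 populations (x axis); circles are array 1, squares array 2, and lines are means. Syt8 is high in Osx+ cells alone (8.53 and 8.91), Tnni2 and Tnnt3 in CD51+ BMSCs and Osx+ cells.

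Cartilage genes moved with the Osx+ arrays as well. All 6 chondrocyte genes had their highest values there, with a mean level of 12.9 on both arrays, against 8.70 to 9.0 in CD51+ BMSCs, 5.08 to 5.94 in P-SSCs, 5.61 to 7.19 in the BM-SSCs, 6.62 in Nes+ BMSCs and 3.50 to 3.54 in CD45+ cells. Col2a1, the main cartilage collagen, read 14.81 and 14.75 in Osx+ cells. Their part in the signal of Tnni2, Tnnt3 and Syt8 was not tested.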

How the data were processed

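The deposited values are RMA log2 signals, computed by the authors in Partek GS and R (background-corrected, quantile-normalized between arrays and summarised to probe sets by median polish). The submitters' processing notes name limma, with no version stated. No further normalization was applied to them. Of 45101 probe sets, 64 controls were left out and 45037 tested, without a filter on signal. Symbols came from the platform's annotation table (34945 probe sets with 1 symbol), and RefSeq genes of GRCm38.p6 gave only gene order and promoters.

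A single linear model over all 11 arrays, with 1 coefficient for each population, was fitted with limma 3.58.1 in R 4.3.3 (5 residual and 2.65 prior degrees of freedom), with Benjamini-Hochberg adjustment over all tested probe sets in each comparison and a threshold of 0.05. The method was tested on simulated data. The members and lists were chosen with earlier results of these data known, so contrasts of the members with CD51+ BMSCs carry no test. Named are all members, up to 4 genes of each list with the largest difference between CD51+ BMSCs and Osx+ cells, genes that define a list, the non-muscle paralogs and the 10 genes of most similar pattern. Other genes named (those that passed, the giant proteins, the chromosomal neighbours and those with the largest array difference) were picked after their values were seen. Of 86 other muscle genes listed 82 were measured.

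Alternatives were a fit of only the groups compared, quantile normalization, median centring, leaving out dim probe sets, a variance trend with robust estimation, 1 probe set per gene, the second probe set, a block on the array number, and leaving out each array or array 2 of both SSC populations. Array signal sets the precision: medians lay between 4.43 and 4.94 and interquartile ranges between 1.81 and 3.56 log2 units.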

Additional observations from a re-analysis of the deposited data

How the results depend on the processing

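With 2 arrays a population, calls rest on the spread pooled over populations, to which array 2 of both SSC populations adds much. The direction of the median difference of the 10 genes was the same under all alternatives run. Leaving out 1 array gave medians of 2.49 to 3.29 (CD51+ BMSCs minus Osx+ cells), 3.06 to 4.12 (minus CD45+ cells), 2.62 to 4.31 (minus BM-SSCs) and 3.06 to 4.02 (minus P-SSCs). The second probe set, for the 4 genes that have one, gave 1.93, 2.71, 2.41 and 2.14 in the same order, and for BM-SSCs quantile normalization gave 2.76 and leaving out array 2 of both SSC populations 4.31. On the second probe set Myh1 turned to -0.032, -0.053, -0.95 and -1.16, Myh4 to 1.52, 1.57, 0.73 and 1.36 in the same order, and Ckm to -0.090 (Osx+), -1.15 (BM-SSCs) and -1.49 (P-SSCs). Tnnt3 in BM-SSCs against CD45+ cells, 0.27 and not called, turned to -0.12 with quantile normalization and to -0.24 without array 2 of the BM-SSCs or of both SSC populations (-0.24 to 0.77 with 1 array left out). Of the 10 genes, the count called for P-SSCs against Osx+ cells (1) was 0 with only the groups compared and on the second probe set, 2 without array 2 of both SSC populations, and 0 to 2 with 1 array left out. For BM-SSCs against Osx+ cells (1) it was 0 with only the groups compared, 2 without array 2 of both SSC populations, and 0 to 1 with 1 array left out. In both comparisons the count was 0 without either Osx+ array, and for P-SSCs it was 2 without array 1 of the P-SSCs. For P-SSCs against CD45+ cells (0) it was 1 with median centring and without array 2 of both SSC populations, and 0 to 3 with 1 array left out, the 3 being without array 1 of the P-SSCs. For BM-SSCs against CD45+ cells (0) it was 1 with quantile normalization, median centring, the replicate block, 1 probe set per gene and without array 2 of both SSC populations, and 0 to 2 with 1 array left out, being 2 without array 1 of the BM-SSCs and 1 without either P-SSC array. The count of other muscle genes called was 35 with only the groups compared, 5 with quantile normalization, 1 without dim probe sets and 38 without array 2 of both SSC populations against Osx+ cells (8), and 51, 7, 3 and 49 against CD45+ cells (15). With 1 array left out it lay between 0 and 13 against Osx+ cells, being 0 without either CD51+ or either Osx+ array, 3 without either CD45+ array and 13 without either P-SSC array. Against CD45+ cells it lay between 0 and 25, being 0 without either CD45+ array or array 2 of the CD51+ BMSCs, 2 without array 1 of the CD51+ BMSCs, 6 without either Osx+ array and 25 without either P-SSC array. Some alternatives had fewer arrays or fewer probe sets in the fit, and the cause of the changed counts was not tested. By array number, deviations from the population means correlated between -0.27 and 0.78 over 10 pairs of populations, 1 of them over 0.1. That pair was P-SSCs with BM-SSCs (0.78), whose array 2 both stood apart. Array numbers thus ran together for these populations and not for the others. As a block the number changed the counts of other muscle genes, beside the count named above. They were 9 against Osx+ cells (900 of 45037 probe sets called) and 13 against CD45+ cells (2596). The alternatives for Myl1, Myf5, Mb, Ryr1, Syt8 and the pan-leukocyte count were chosen after seeing the data.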
